A study of Mus musculus with 6 samples.

Results

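Integrins are the cell surface receptors through which stromal cells hold the extracellular matrix, and 10 genes of this family were examined in fibro-adipogenic progenitors (FAPs), the mesenchymal cells that lie between muscle fibres and make much of the matrix of muscle. The genes are Itga1, Itga4, Itga5, Itga8, Itga9, Itga11 and Itgav, which encode alpha subunits, and Itgb1, Itgb3 and Itgb5, which encode beta subunits. They were taken by symbol as subunits whose receptors bind collagen, fibronectin or laminin, and all 10 were found among the 16671 genes of the table. FAPs were sorted by flow cytometry from hindlimb muscles of wild type mice aged 4 to 5 months. The 3 C1q libraries came from FAPs treated with C1q at 100 µg/ml, and the 3 vehicle libraries from FAPs treated with vehicle. C1q is the recognition protein of the classical complement pathway, and the comparison asks what C1q does to gene expression in these cells.

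An integrin is a pair of an alpha and a beta subunit, and the pair decides which matrix protein is bound. The beta tails inside the cell recruit talin and kindlin, which switch the receptor on and link it to actin, and focal adhesion kinase and its partners carry the signal onward. In fibroblasts, integrins sense matrix stiffness, help to assemble fibronectin and collagen fibres, and release active TGF-beta from its latent complex.

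The libraries held 24046020 to 31929119 reads with C1q and 5379209 to 38861152 with vehicle, and vehicle replicate 3 was the shallowest. The cell type label says FAPs, whereas the protocol for RNA extraction names MuSCs, the usual short form for muscle stem cells. Of 9 FAP markers, all were detected, and Pdgfra, the receptor used to define FAPs, had a normalised read count of 31450 to 34035 with C1q and 15908 to 24176 with vehicle. These markers moved with the treatment: 7 of the 9 were higher and 0 lower with C1q. With the length trend described below removed, 6 were higher and 0 lower. Their median log2 fold change was 0.77, and their summed level was 336206 to 434292 with C1q and 200492 to 237496 with vehicle. Over all genes, 19.7% were higher and 18.7% lower (14.6% and 18.8% with the length trend removed), the shares to set beside each marker count here. The satellite cell gene Pax7 stood at 1.49 to 3.52 with C1q and 0 to 7.58 with vehicle. Over 8 markers of satellite cells and myoblasts, 1 was higher and 4 were lower with C1q, and 5 were lower when replicate number was a block. The 4 lower were Myf5, Myod1, Myog and Cdh15. The 1 higher was Vcam1, also listed below as an integrin ligand, at 5159 to 6530 with C1q and 3591 to 4149 with vehicle. The summed level of the 8, Vcam1 included, was 10767 to 12613 with C1q and 10177 to 24740 with vehicle, highest in vehicle replicate 1. Over 7 markers of pericytes and smooth muscle, 2 were higher (Abcc9 and Kcnj8) and 1 lower (Acta2), with a median log2 fold change of 0.93. When replicate number was a block, 3 were higher and 1 lower. Their summed level was 13081 to 16283 with C1q and 16413 to 18602 with vehicle. Most of it was Acta2, at 10164 ± 776 with C1q and 14924 ± 1193 with vehicle. Abcc9 was at 3291 ± 914 and 1231 ± 375, and Rgs5 was near 0 (4.87 to 6.72 with C1q, 0 to 4.63 with vehicle). Of 5 tenocyte markers 2 were higher (Tnmd and Fmod) and 1 lower, and 4 were higher and 1 lower when replicate number was a block. The 1 lower was Scx, at 126 to 199 with C1q and 302 to 413 with vehicle. Summed levels were 44472 to 96309 with C1q and 9636 to 35688 with vehicle, most of it Fmod and Thbs4, which was not called. Of 5 glial markers 2 were higher and 0 lower (275 to 317 with C1q, 114 to 323 with vehicle). None of 7 endothelial markers was called (604 to 1301 with C1q, 655 to 1331 with vehicle), although Emcn was called lower with the replicate block (adjusted p 0.0253), and Pecam1 among them stood at 8.18 ± 4.76 with C1q and 31.9 ± 54.7 with vehicle, most of it in vehicle replicate 2. In bulk RNA, fewer cells of a type and less RNA per cell cannot be told apart, and the part of these markers in the results below was not tested.

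With C1q, 6 of the 10 integrin genes rose and 1 fell (limma-trend on log2(value + 1), Benjamini-Hochberg adjusted p below 0.05 over all genes). Itga1, Itga8, Itga9, Itga11, Itgav and Itgb5 rose, Itga5 fell, and Itga4, Itgb1 and Itgb3 did not pass the test. Over all genes, 19.7% were called higher, 18.7% lower and 38.3% in either direction. The median log2 fold change was 0.54 over the 10 integrin genes and 0.029 over all genes tested. The C1q and vehicle libraries did not overlap at 8 of the 10, 7 higher and 1 lower with C1q, against 52.1% of all genes.

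Transcript length bears on this count, since fold changes rose with length in these libraries. The longest annotated transcripts of the 10 genes run from 3282 to 10967 bases. Among all 7626 genes of at least 3282 bases, 33.5% were called higher and the median log2 fold change was 0.21. With the length trend removed from each library, 5 of the 10 rose and 1 fell, where 14.6% of all genes with a length were higher, 18.8% lower and 33.4% called in either direction. The median over the 10 was then 0.33, and over all genes it was -0.011.

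**Figure D1:**
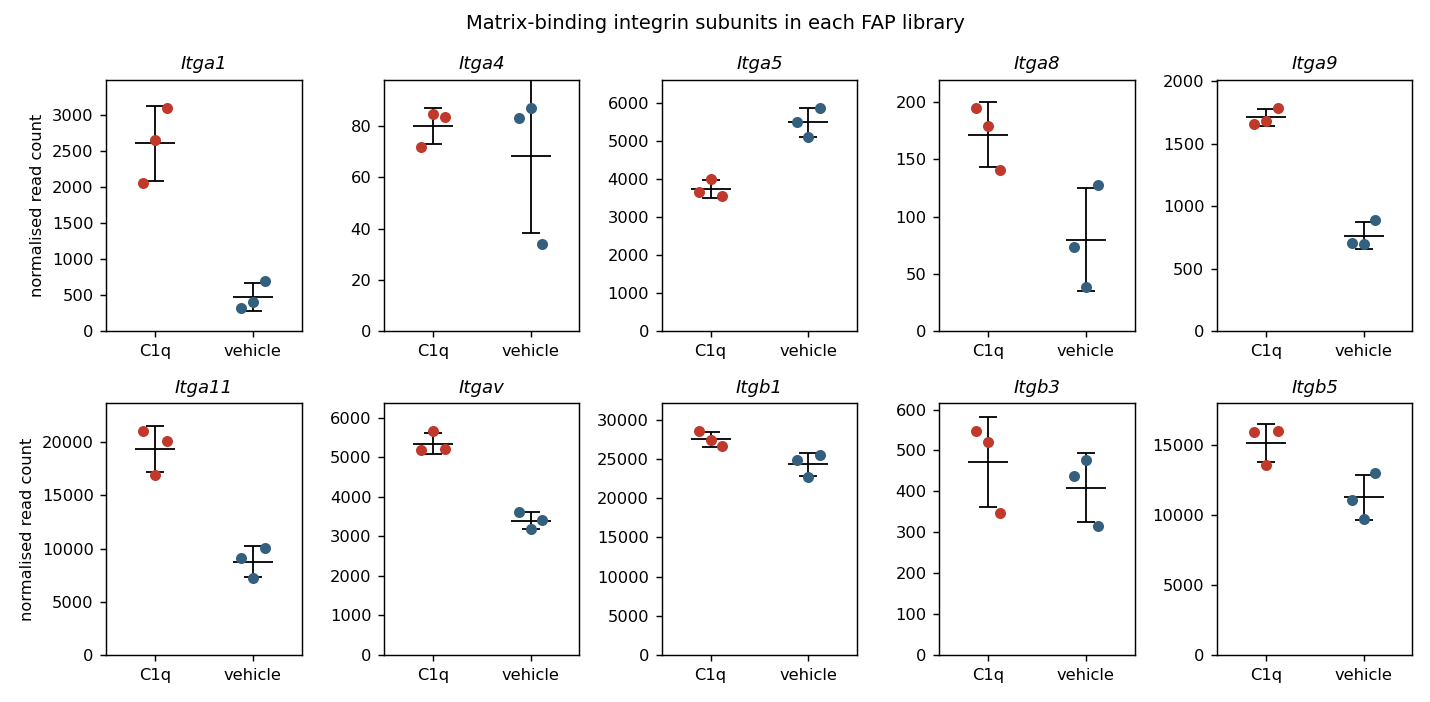
Normalised read count (vertical axis, from 0) of each integrin gene in the 3 C1q and 3 vehicle libraries, with 1 point per library, the mean as a bar and the SD as whiskers (n = 3). The groups stand apart for every gene but Itga4 and Itgb3, and Itga5 is lower with C1q.

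Of the 10 genes, both that encode collagen-binding alpha subunits rose, and Itga1 had the largest fold. Itga1 encodes the subunit that, with the product of Itgb1, binds collagen IV, other collagens and laminin (Entrez gene 109700, chromosome 13, 114958079 to 115101964, minus strand, GRCm38). Itga1 had normalised read counts of 2058, 2650 and 3097 in C1q replicates 1, 2 and 3, against 315, 406 and 697 in vehicle replicates 1, 2 and 3. Every C1q library was higher than every vehicle library, and the lowest C1q value was far above the highest vehicle value. The means were 2602 ± 521 with C1q and 473 ± 200 with vehicle (SD, n = 3 each), a 5.73-fold rise. The log2 fold change was 2.52 ± 0.28 (SE), at an adjusted p of 5.95e-04. It was 1.91 with the length trend removed (adjusted p 0.00233) and 2.27 without vehicle replicate 1, the library with the highest sum of myoblast markers. Exons of Gm49395 on the same strand share 685 bases with Itga1 exons, so its reads are uncertain to that extent.

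Itga11 encodes the receptor subunit for fibrillar collagen that marks matrix-producing mesenchymal cells (Entrez gene 319480, chromosome 9, 62677855 to 62783979, plus strand). Itga11 was at 21010, 16950 and 20078 in C1q replicates 1, 2 and 3, against 9075, 7186 and 10033 in vehicle replicates 1, 2 and 3. The groups were again apart, with replicate 2 the lowest of its group on both sides. The means of 19346 ± 2126 with C1q and 8765 ± 1448 with vehicle differed by a log2 fold change of 1.15 ± 0.14 (adjusted p 8.38e-04), or 0.92 with the length trend removed (adjusted p 0.00293). In size of fold Itga1 moved more than Itga11, while Itga11 stayed the more abundant transcript: per kilobase of transcript, Itga1 was at 0.0617 ± 0.0150 of the Itga11 level with C1q and 0.0243 ± 0.00796 with vehicle.

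A fibronectin receptor subunit, Itga5, went the other way, whereas Itgav, which also binds fibronectin, rose. Itga5 pairs with Itgb1 to form the classical receptor for the RGD site of fibronectin (Entrez gene 16402, chromosome 15, 103344286 to 103366791, minus strand). Itga5 had 3660, 4010 and 3549 in C1q replicates 1, 2 and 3, against 5486, 5109 and 5875 in vehicle replicates 1, 2 and 3. All C1q libraries were below all vehicle libraries. The means were 3739 ± 241 with C1q and 5490 ± 383 with vehicle, 1.47-fold lower with C1q (log2 fold change -0.55 ± 0.080, adjusted p 0.00159). Itga5 was the only one of the 10 genes to fall, and the change was -0.72 with the length trend removed (adjusted p 7.58e-04).

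Itgav encodes the alpha subunit that pairs with several beta subunits, binds vitronectin and fibronectin, and takes part in the activation of latent TGF-beta (Entrez gene 16410, chromosome 2, 83722303 to 83806917, plus strand). Itgav stood at 5184, 5656 and 5201 in C1q replicates 1, 2 and 3, against 3613, 3176 and 3409 in vehicle replicates 1, 2 and 3. The replicates of each group were close to each other and the groups were apart. The rise was 1.57-fold (5347 ± 268 with C1q and 3399 ± 219 with vehicle), which is 0.65 ± 0.074 on the log2 scale (adjusted p 6.18e-04). With the length trend removed the rise of this 7054-base transcript was 0.24 (adjusted p 0.0222). Exons of Gm13684 on the opposite strand cover 634 bases of Itgav exons, and whether counting used the strand is not given in the sources used here, so such reads cannot be separated.

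Itga8 encodes an RGD-binding partner of Itgb1 with nephronectin among its ligands, found on smooth muscle and interstitial fibroblasts (Entrez gene 241226, chromosome 2, 12106632 to 12301985, minus strand). Itga8 was low, at 195, 179 and 140 in C1q replicates 1, 2 and 3, against 73.4, 38.6 and 128 in vehicle replicates 1, 2 and 3. The gap between the lowest C1q and the highest vehicle library was small, and the highest vehicle value, in replicate 3, rests on 30 reads. The log2 fold change was 1.24 ± 0.39 (adjusted p 0.0405, means 172 ± 28.2 with C1q and 79.9 ± 44.8 with vehicle). This call was lost with the length trend removed (0.93, adjusted p 0.108) and without any single library other than vehicle replicate 3 (adjusted p 0.0634 to 0.121). The log2 fold change was 0.81 without vehicle replicate 2. Exons of E030013I19Rik on the opposite strand overlap 372 bases of Itga8 exons.

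Itga9 and Itga4 encode a related pair of alpha subunits without the inserted collagen-binding domain, which recognise VCAM1, fibronectin splice segments, osteopontin and, for Itga9, tenascin C and the large adhesion protein Svep1. Itga9 (Entrez gene 104099, chromosome 9, 118606709 to 118901003, plus strand) had 1659, 1684 and 1787 in C1q replicates 1, 2 and 3, against 706, 696 and 888 in vehicle replicates 1, 2 and 3. The C1q libraries lay within a narrow range, all above the vehicle libraries. Its rise was 2.25-fold (1710 ± 67.7 with C1q and 764 ± 108 with vehicle), a log2 fold change of 1.17 ± 0.10 with the lowest adjusted p of the 10 genes, 3.04e-04. It was 0.76 with the length trend removed (adjusted p 0.00152). Itga4 (Entrez gene 16401, chromosome 2, 79255426 to 79333114, plus strand) was near the low end of the table, at 71.9, 84.8 and 83.7 in C1q replicates 1, 2 and 3, against 83.3, 87.3 and 34.0 in vehicle replicates 1, 2 and 3. The groups overlapped, and vehicle replicate 3 held 8 reads of Itga4. Its log2 fold change was 0.34 with a 95% interval of -0.49 to 1.17 (adjusted p 0.488). Without vehicle replicate 3 it was -0.093, and with the length trend removed it was -0.22, so no direction can be given. Exons of Cerkl on the opposite strand share 1124 bases with Itga4 exons, and Cerkl itself was at 16.4 to 25.4 with C1q and 4.25 to 8.49 with vehicle.

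Among the beta subunits, Itgb1, the common partner of all alpha subunits listed here (Entrez gene 16412, chromosome 8, 128685654 to 128733579, plus strand), was the most abundant of the 10. Itgb1 stood at 28522, 27458 and 26617 in C1q replicates 1, 2 and 3, against 24830, 22678 and 25456 in vehicle replicates 1, 2 and 3. The C1q libraries were all above the vehicle libraries by a small margin. The log2 fold change was 0.18 with a 95% interval of -0.036 to 0.40, and it did not pass the test (adjusted p 0.167). An increase above 1.32-fold lies outside that interval.

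Itgb5, which pairs with Itgav and binds vitronectin (Entrez gene 16419, chromosome 16, 33829665 to 33949338, plus strand), had 15917, 13546 and 15982 in C1q replicates 1, 2 and 3, against 11082, 9721 and 12974 in vehicle replicates 1, 2 and 3. The highest vehicle library came close to the lowest C1q library. The means of 15148 ± 1388 with C1q and 11259 ± 1634 with vehicle gave a log2 fold change of 0.43 ± 0.12 (adjusted p 0.0282), and 0.42 with the length trend removed (adjusted p 0.0470). The call was lost without C1q replicate 1 (adjusted p 0.0962), C1q replicate 3 (0.0958), vehicle replicate 1 (0.0691) or vehicle replicate 2 (0.0683). Itgb3, another beta partner of Itgav and also the beta subunit of the platelet fibrinogen receptor (Entrez gene 16416, chromosome 11, 104608000 to 104670476, plus strand), was at 547, 521 and 346 in C1q replicates 1, 2 and 3, against 436, 477 and 315 in vehicle replicates 1, 2 and 3. The groups overlapped, and replicate 3 was the lowest on both sides. Its log2 fold change was 0.20 with a 95% interval of -0.30 to 0.70 (adjusted p 0.508), and -0.12 with the length trend removed.

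**Figure D2:**
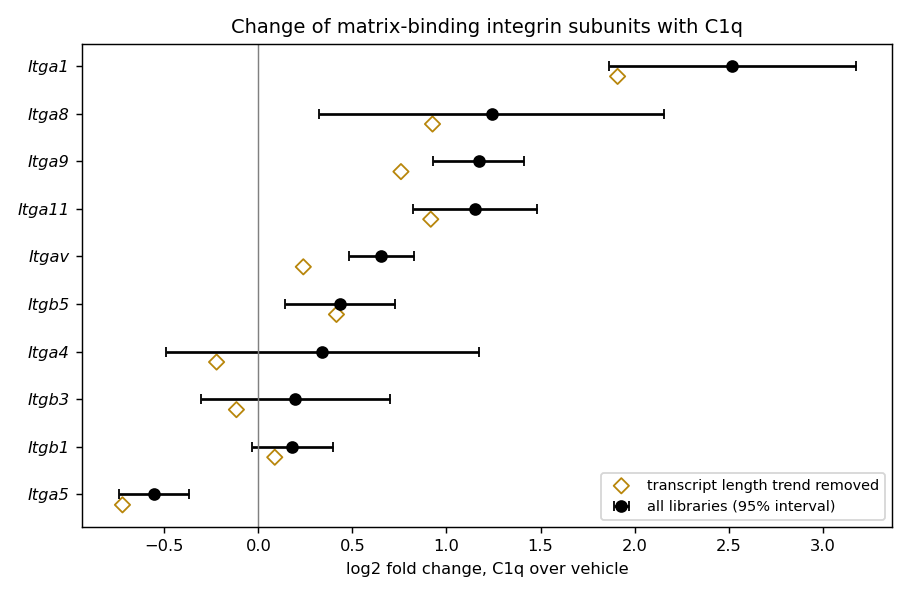
Log2 fold change of C1q over vehicle for the 10 integrin genes, as black points with 95% intervals from limma-trend over all 6 libraries, and as open diamonds with the transcript length trend removed. Itga1 is highest at 2.52, Itga5 is lowest at -0.55, and the diamonds of Itga4 and Itgb3 lie below 0.

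Levels of different genes were set side by side only per kilobase of the longest annotated transcript. With C1q the order of mean levels was Itgb1 (7217 ± 250 normalised reads per kilobase), Itgb5 (4616 ± 423), Itga11 (3893 ± 428), Itga5 (847 ± 54.5), Itgav (758 ± 37.9), Itga9 (244 ± 9.65), Itga1 (237 ± 47.5), Itgb3 (81.5 ± 18.9), Itga8 (29.5 ± 4.84) and Itga4 (8.20 ± 0.73). The libraries of neighbours overlapped for Itgb5 with Itga11 and for Itga9 with Itga1. With vehicle the order was Itgb1 (6375 ± 382), Itgb5 (3431 ± 498), Itga11 (1764 ± 291), Itga5 (1243 ± 86.8), Itgav (482 ± 31.0), Itga9 (109 ± 15.4), Itgb3 (70.8 ± 14.6), Itga1 (43.1 ± 18.2), Itga8 (13.7 ± 7.71) and Itga4 (6.98 ± 3.04). There the neighbours that overlapped were Itgb3 with Itga1 and Itga8 with Itga4. Itga1 thus stood above Itgb3 with C1q, with no overlap of their libraries, and below it on average with vehicle.

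The make-up of the 7 alpha transcripts shifted with these changes, which is a description of the same values and was not tested. Itga11 made up 67.6%, 60.5% and 65.7% of the summed level per kilobase in C1q replicates 1, 2 and 3, against 48.9%, 45.1% and 49.9% in vehicle replicates 1, 2 and 3. Itga5 made up 13.2%, 16.1% and 13.1% in the C1q libraries, against 33.3%, 36.1% and 32.9% in the vehicle libraries. Among the 7, the collagen-binding subunits Itga1 and Itga11 together held 68.5 ± 3.29% of the alpha transcripts with C1q and 49.1 ± 2.63% with vehicle. Other alpha subunits are outside these shares, among them Itga2, which was called higher, and Itga10, which was not called (log2 fold change 0.11, adjusted p 0.859). The RGD-binding subunits Itga5, Itga8 and Itgav held 27.3 ± 3.10% with C1q and 47.7 ± 2.52% with vehicle. The share of Itgav itself was 12.6 ± 1.36% with C1q and 13.2 ± 1.14% with vehicle, and the ratio of Itgav to Itga5 was 0.896 ± 0.019 with C1q and 0.388 ± 0.024 with vehicle. The summed alpha level was 6017 ± 329 per kilobase with C1q and 3662 ± 426 with vehicle. The ratio of Itgb1 to that sum was 1.20 ± 0.071 with C1q and 1.75 ± 0.10 with vehicle, with the libraries of the groups apart.

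**Figure D3:**
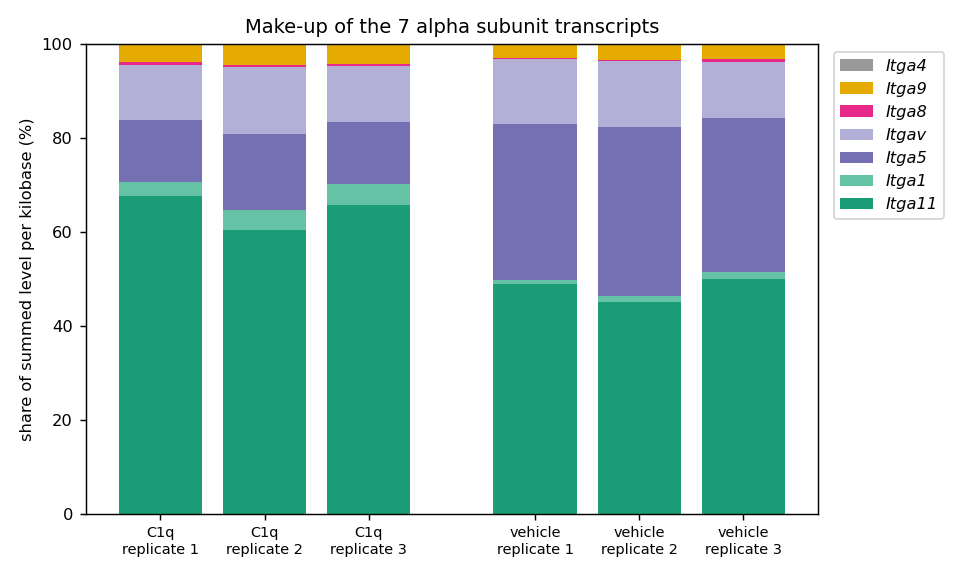
Share of each alpha subunit (percent of the summed normalised reads per kilobase of the 7 alpha genes) in each C1q and vehicle library. Itga11 takes 60.5% to 67.6% of the bar with C1q and 45.1% to 49.9% with vehicle, and Itga5 takes 13.1% to 16.1% with C1q and 32.9% to 36.1% with vehicle.

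The promoters of the collagen-binding genes that rose and of the fibronectin receptor gene that fell are shown because these 3 had the largest changes in share among the 7 alpha genes. Each is the 250 bases before the RefSeq start of the gene in GRCm38.p6, written 5′ to 3′ on the gene's strand, with the GC box letters GGGCGG or their complement CCGCCC in capitals. Itga1 is at chr13:115101965-115102214 (minus strand), Itga11 at chr9:62677605-62677854 (plus strand) and Itga5 at chr15:103366792-103367041 (minus strand).
Itga1: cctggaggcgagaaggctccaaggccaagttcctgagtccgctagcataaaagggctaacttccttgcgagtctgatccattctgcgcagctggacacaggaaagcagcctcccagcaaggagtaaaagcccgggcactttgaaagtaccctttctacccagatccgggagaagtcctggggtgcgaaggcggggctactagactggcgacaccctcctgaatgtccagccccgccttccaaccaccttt
Itga11: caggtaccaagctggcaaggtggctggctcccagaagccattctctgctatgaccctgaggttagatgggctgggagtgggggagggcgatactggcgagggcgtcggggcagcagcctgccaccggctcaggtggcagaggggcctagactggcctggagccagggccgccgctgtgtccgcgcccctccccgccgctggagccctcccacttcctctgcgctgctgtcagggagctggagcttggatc
Itga5: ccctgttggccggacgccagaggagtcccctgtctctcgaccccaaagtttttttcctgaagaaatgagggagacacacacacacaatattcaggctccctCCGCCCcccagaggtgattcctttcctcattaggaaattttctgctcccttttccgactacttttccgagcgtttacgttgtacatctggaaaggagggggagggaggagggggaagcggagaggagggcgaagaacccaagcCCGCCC
The Itga5 window holds 2 GC boxes, and those of Itga1 and Itga11 hold none. The bases that follow the start were found in a transcript for Itga1 and Itga11, but not for Itga5 or Itga8. RefSeq windows were matched for 9 of the 10 genes, all but Itgb3. The windows of Itga9 and Itgav lie inside the gene spans given above (chr9:118711442-118711691 and chr2:83724147-83724396), downstream of the first base of each span, and that of Itga8 (chr2:12301945-12302194) overlaps its span, so they precede another start than the outermost one. Of the 9, 4 hold a GC box (Itga4, Itga5, Itgb1 and Itgb5), against 32.7% of 32851 promoter windows of the same length, both strands searched. The AP-1 letters TGANTCA and the TATA box letters TATAAA are in 0 of the 9, against 6.75% and 12.4% of all windows. The TEAD letters GGAATG are in 1, that of Itgb1, against 12.6% of all windows. None of these motifs overlapped another in the 9 windows, and a match is a description of the letters only.

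For each integrin gene, the gene with the most similar pattern over the 6 libraries was taken by Pearson r on log2(value + 1) among 11904 other genes. Many genes share the step between the groups, and 934 had an r above 0.95 with Itga1, 1293 with Itga9 and 989 with Itga11. Itga1 was most like Pcdhb20, a clustered protocadherin (r = 0.998), and Itga8 most like Pcdhga2, another (r = 0.998). Itga11 was most like Rbl2 (r = 0.999), Itga9 most like Parp4, Itgav most like Tmem245, Itga5 most like the mitochondrial ribosomal protein gene Mrpl16, Itgb1 most like Cog3, Itgb5 most like Golga1, Itga4 most like Porcn and Itgb3 most like the imprinted RNA gene Meg3 (r = 0.995 to 1.000). These values are a description over 6 libraries with no test.

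Among the other integrin subunits, calls went in both directions. Of 16 listed, 15 were measured (Itgax was not analysed here). Of these, 2 rose and 2 fell, with a median log2 fold change of -0.20. With the length trend removed, 1 rose and 4 fell (median -0.42). The shares over all genes were 19.7% higher and 18.7% lower, and 14.6% and 18.8% with the length trend removed. Itga2, which encodes the collagen-binding subunit next to Itga1 on chromosome 13 and whose receptor has been reported to bind C1q on mast cells, had 88.8, 93.6 and 121 in C1q replicates 1, 2 and 3, against 11.1, 17.0 and 42.5 in vehicle replicates 1, 2 and 3. The groups were apart, on 10 to 22 reads per vehicle library. Its log2 fold change was 2.26 ± 0.45 (adjusted p 0.00634), and 1.84 with the length trend removed. Itgb4, the partner of Itga6 in hemidesmosomes, rose by 0.55 (adjusted p 0.0270, and 0.360 with the length trend removed). The leukocyte beta subunits Itgb7 and Itgb2 fell, Itgb7 to 16.6 ± 1.81 with C1q against 83.0 ± 20.1 with vehicle (log2 fold change -2.23, adjusted p 6.03e-04) and Itgb2 to 17.3 ± 6.64 against 58.0 ± 21.6 (-1.70, adjusted p 0.0130). Beside them, 1 of 5 measured leukocyte markers was lower, Cd14, at 229 to 270 with C1q and 293 to 570 with vehicle. Cd14 made up most of the summed levels of 279 to 358 with C1q and 391 to 667 with vehicle. With the length trend removed, Cd14 was not called (-0.45, adjusted p 0.220) and Csf1r was called lower (-0.75, adjusted p 0.0474). In the main test the other 4 markers, Csf1r included, were not called, and their groups overlapped. Among these 4, Csf1r (mean 43.8 with C1q and 63.4 with vehicle), Cd68 (19.8 and 33.2) and Itgam (5.45 and 7.82) had lower means with C1q. The macrophage marker Adgre1 was at 0 to 21.4 with C1q and 0 to 5.41 with vehicle. Its highest value, in C1q replicate 2, rests on 22 reads. Itga7, the laminin receptor subunit of muscle cells, was at 834, 979 and 988 in C1q replicates 1, 2 and 3 against 2441, 1526 and 880 in vehicle replicates 1, 2 and 3, and was not called (-0.67, adjusted p 0.137). Myod1, the myogenic regulator, was at 236 to 271 with C1q and at 1386, 686 and 451 in vehicle replicates 1, 2 and 3, and the share of the muscle lineage in the Itga7 values was not tested. Itgb6 (-0.74), Itga3 (-0.20), Itga6 (-0.55), Itga2b (-0.12), Itgb8 (0.18) and Itga10 (0.11) did not pass the test (adjusted p 0.0591 to 0.859). With the length trend removed, Itgb6 (-0.96, adjusted p 0.0263) and Itga3 (-0.42, adjusted p 0.0178) were called lower, and Itgb8 (-0.32) and Itga10 (-0.13) turned in sign. With the replicate block, Itga6 was called lower (adjusted p 0.0481).

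Among the cytoplasmic partners of integrins, calls went in both directions. Of 27 measured activators and adhesion adaptors, 11 rose and 2 fell, with a median log2 fold change of 0.19. Over all genes, 19.7% were higher and 18.7% lower. With the length trend removed, 4 rose and 4 fell (median -0.061). These counts are near the shares over all genes with a length, 14.6% higher and 18.8% lower. Tns3, a tensin that binds beta tails, was at 12222, 13336 and 12341 in C1q replicates 1, 2 and 3 against 5606, 5663 and 5935 in vehicle replicates 1, 2 and 3 (log2 fold change 1.14, adjusted p 1.52e-04, and 0.69 with the length trend removed). The groups were far apart and each was tight. Kank1, a talin-binding protein at the rim of adhesions, rose by 1.21 (adjusted p 6.05e-04) and Lims1, the adaptor PINCH, by 0.54 (6.05e-04). Lpp (0.59, adjusted p 6.55e-04) and the talin gene Tln2 (0.90, adjusted p 0.00109) rose too, but stood at -0.14 (0.198) and 0.25 (0.0888) with the length trend removed. The genes that fell were Ilk, the integrin-linked pseudokinase that binds PINCH (3097 ± 138 with C1q and 4671 ± 289 with vehicle, -0.59, adjusted p 7.87e-04), and Itgb1bp1, which encodes an inhibitor that binds the Itgb1 tail (698 ± 46.9 with C1q and 1111 ± 111 with vehicle, -0.67, adjusted p 0.00139). Itgb1bp1 was named after its value was seen, and its exons overlap those of Asap2 and Cpsf3 on the opposite strand. The main talin gene Tln1 (0.19, adjusted p 0.0716, and -0.31, adjusted p 0.0144, with the length trend removed) and the filamin gene Flnc (0.19, adjusted p 0.246, and -0.34, adjusted p 0.0608, with the length trend removed) did not pass the test.

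Among 21 kinases and signalling adaptors of adhesions, 10 rose and 3 fell (median 0.23), and 5 rose and 6 fell with the length trend removed (median 0.053). The shares over all genes were 19.7% higher and 18.7% lower, and 14.6% and 18.8% with the length trend removed. Nedd9, a docking protein of focal adhesion kinase, rose to 2693 ± 164 with C1q against 1145 ± 151 with vehicle (1.24, adjusted p 2.66e-04), and Rock2, the kinase that drives actomyosin contraction, to 5931 ± 274 against 2990 ± 180 (0.99, adjusted p 1.96e-04). Both were called with the length trend removed as well (1.02 and 0.53). The Src family kinase gene Yes1 (0.52), the small GTPase gene Rap1b (0.41), the adaptor gene Crkl (0.46) and the exchange factor gene Dock1 (0.60) rose with adjusted p of 0.00122 to 0.00376. With the length trend removed, Crkl (0.22, adjusted p 0.0521) and Dock1 (0.20, adjusted p 0.0584) were not called. Rhoa (-0.37), Bcar1 (-0.30), the docking protein that shares its structure with Nedd9, and the talin recruiter Apbb1ip (-0.28) fell with adjusted p of 0.00414 to 0.0109, and were named after their values were seen. Rac1 (-0.17) and Rapgef1 (0.0062) did not pass the test (adjusted p 0.0975 and 0.942), but both were called lower with the length trend removed (-0.31, adjusted p 0.0147, and -0.36, adjusted p 0.00249).

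Of 22 genes for integrin ligands, 10 rose and 2 fell (median 0.64), and 6 rose and 3 fell with the length trend removed (median 0.15). The shares over all genes were 19.7% higher and 18.7% lower, and 14.6% and 18.8% with the length trend removed. The laminin chain genes Lama4, Lamb2 and Lama2 rose by 1.10, 1.16 and 0.70 (adjusted p 2.57e-04 to 3.25e-04), the last standing at 0.14 (adjusted p 0.128) with the length trend removed. Among ligands of Itga9, Svep1 rose to 59241 ± 2477 with C1q against 31912 ± 4399 with vehicle (0.90, adjusted p 0.00181, and 0.27, adjusted p 0.113, with the length trend removed). Vcam1 rose by 0.62 (adjusted p 0.00285, and 0.49, adjusted p 0.0106, with the length trend removed). Tnc, which encodes tenascin C, did not pass the test (-0.16, adjusted p 0.648). Vcam1 and Tnc were named after their values were seen. Spp1, which encodes osteopontin, also a ligand of Itga9, fell by 2.79 on the log2 scale. Thbs1, which encodes thrombospondin, rose by 2.18. Tgfb1, the other ligand gene that fell and named after its value was seen, was at 1213 ± 150 with C1q and 1873 ± 237 with vehicle (-0.63, adjusted p 0.00536). Of the fibrillar collagen genes, Col3a1 (0.68, adjusted p 0.0803) and Col1a2 (-0.44, adjusted p 0.179) did not pass the test. Col1a1, named after its value was seen, rose by 0.77 (adjusted p 0.0287), and was not called with the length trend removed (0.45, adjusted p 0.187). Fn1, the main ligand of the Itga5 product and named after its value was seen, stood at 288356 ± 30000 with C1q and 229657 ± 15868 with vehicle (0.33, adjusted p 0.280, and -0.17, adjusted p 0.618, with the length trend removed). Of 10 other matrix receptors, 4 rose and 1 fell (median 0.13). With the length trend removed, 2 rose and 1 fell, and 4 rose and 2 fell with the replicate block. Beside the first 2 of these counts stand the same shares over all genes as for the ligands. The fibrillar collagen receptor kinase gene Ddr2 rose to 13044 ± 1011 with C1q against 6963 ± 777 with vehicle (0.91, adjusted p 6.18e-04), and Sdc3, a syndecan, by 0.67 (adjusted p 0.00118). Dag1 (0.35, adjusted p 0.0320) and the collagen uptake receptor gene Mrc2 (0.40, adjusted p 0.0472) rose, and stood at 0.047 and 0.085 with the length trend removed. The hyaluronan receptor gene Cd44 fell by 0.59 on the log2 scale (adjusted p 0.0107). Sdc2 (-0.097) and Sdc4 (-0.29) did not pass the test (adjusted p 0.371 and 0.102), although Sdc4 was called lower with the replicate block (adjusted p 0.0297). Of the genes named from these lists, exons on the opposite strand overlap those of Ilk (with Taf10 and Rrp8), Rac1 (Daglb) and Tln1 (Creb3). The same holds for Rhoa (Tcta), Fn1 (Apol7d) and Itga7 (Mettl7b). It also holds, with genes of provisional or antisense names, for Ddr2, Itgb4, Lama2, Lpp, Nedd9, Rapgef1, Sdc3, Svep1, Thbs1, Tnc, Vcam1 and Yes1. Exons on the same strand overlap those of Spp1 (Gm42793), Col3a1 (Gm47302), Itga10 (Gm42957) and Itgam (Gm49368), 309, 141, 1739 and 3450 bases of them. The reads of all these genes are uncertain to that extent.

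**Figure D4:**
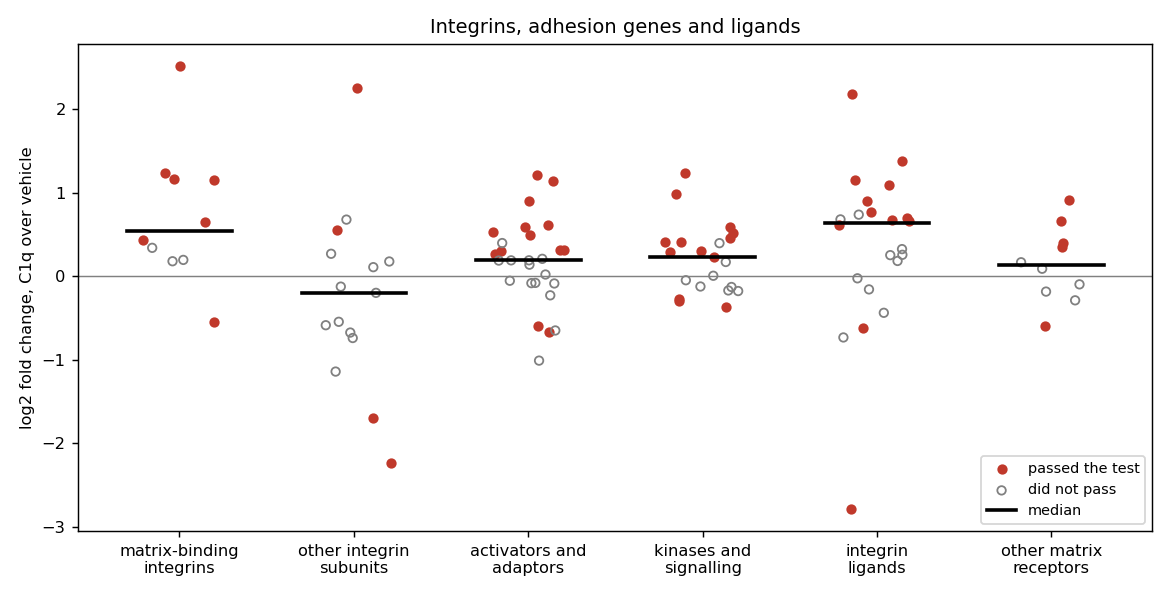
Log2 fold change of C1q over vehicle for each gene of the integrin, adhesion, ligand and receptor lists, filled where the gene passed the test and open where it did not, with the list median as a line. The medians are 0.54 for the matrix-binding integrins, -0.20 for the other integrin subunits, 0.19 and 0.23 for the adhesion genes, 0.64 for the ligands and 0.13 for the other receptors.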

How the data were processed

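Low-input RNA sequencing of sorted FAPs gave 3 C1q and 3 vehicle libraries, each from 10 ng of total RNA, grouped and numbered by sample title. The deposited table is a normalised signal: featureCounts counts per Entrez gene, per the file headers, divided by a size factor per library. The submitters' processing notes name Trimmomatic, HISAT2, featureCounts, DESeq2 and mm10. Annotation and strandedness were not given in the sources used here. As whole reads, within 0.001 of a read, 100% of values were recovered, and 1 read is worth 4.25 units in vehicle replicate 3 and 0.583 to 0.975 in the others.

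Symbols came from RefSeq (GRCm38.p6; 16077 of 16671 IDs matched) and transcript lengths from GENCODE vM21 (14933 IDs, 89.6%). The test was limma-trend (limma 3.58.1, R 4.3.3) on log2(value + 1) over all 16671 genes, tested first on simulated data. Fold changes on this scale understate low genes. The length trend was a loess curve (span 0.5, genes with a mean of at least 20) of each library's log2 ratio to the gene mean on transcript length. Alternatives used edgeR 4.0.16 and DESeq2 1.42.0 on the recovered reads, other pseudocounts, a filter, a replicate block and each library left out. No replicate pair agreed within sampling noise (chi-square per degree of freedom 16.5 to 40.3). The labels do not say whether replicates are separate mice or cultures, so p-values cover only the spread among these samples, possibly technical. Same-numbered libraries deviated together from their group means (correlations 0.123, 0.175 and 0.132, all over 0.1), so the numbers may mark pairs, from the data alone. The main test did not use these pairs, and only the alternatives with the replicate block did.

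The 10 genes and the lists were chosen with earlier results of these data known. Named genes were all members, other integrin subunits with a mean of at least 20, and in each other list up to 6 called genes of lowest p and up to 2 uncalled genes of highest mean.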

Additional observations from a re-analysis of the deposited data

How the results depend on the processing

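Over 16 alternatives, Itga1, Itga9, Itga11 and Itgav were called higher and Itga5 lower in every one, with log2 fold changes of 1.91 to 2.84, 0.76 to 1.28, 0.92 to 1.25, 0.24 to 0.70 and -0.72 to -0.50. The calls of Itga8 and Itgb5 were lost in 7 and 4 alternatives, and the cause was not tested. The 7 calls became 5 to 7 when 1 library was left out (4 to 6 higher, 1 lower) and 6 with the length trend removed, with or without the replicate block. Over all genes, 6389 calls became 4599 to 7242 when 1 library was left out and 4993 with the length trend removed, where 43.8% of calls were higher against 51.3%. On the recovered reads, edgeR with TMM scaling called 6881 genes and DESeq2 6468, each with the same 7 of the 10 in the same direction. With the replicate block alone, 7 of the 10 genes and 6833 of all genes were called, and it changed no call among the 10. Itga4, not called, was at -0.22 with the length trend removed, with or without the block, and, with 1 library left out, between -0.093 (without vehicle replicate 3) and 0.57. Itgb3, not called, was at -0.12 with the length trend removed, with or without the block. Depth limits Itga4 and Itga8 most, with 8 and 30 reads in vehicle replicate 3.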
